A study of Mus musculus with 4 samples.

Results

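The Groucho, or TLE, proteins are transcriptional corepressors, and their transcripts were measured in whole thymus of C57BL/6 mice carrying a miR-181d transgene or a miR-181d knockin allele. The family was read by every probe of the bead array named TLE1, TLE2, TLE3, TLE4, TLE6 or AES, which gave 18 of 45281 probes and 6 of the 19579 genes that could be matched. AES is the older name of Tle5. Total RNA of 2 transgenic and 2 knockin thymus samples was hybridised, 1 sample per array. The labels and the design text, which name the transgenic line Tg-8, do not say which promoter drives the transgene, how the knockin allele was built or which way it changes miR-181d. The age and sex of the mice are not stated, and no wild-type thymus was among the samples used, so each value places transgenic thymus against knockin thymus and nothing else. The family was chosen on the signal of Tle6, whose difference between the genotypes was already known from these arrays. Tle6 is therefore described without a test, whereas the other 5 genes entered by name. Knockin array 2 stood apart from the other 3 arrays in sex-linked transcripts, and the values of the probes whose sign depended on it are given without it.

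Groucho proteins do not bind DNA themselves. They are recruited by DNA-binding partners, among them the TCF and LEF factors of the Wnt pathway, the RUNX factors and the HES factors of the Notch pathway, and they silence the bound genes together with histone deacetylases. The long members Tle1, Tle2, Tle3 and Tle4 have an N-terminal region through which they assemble and a C-terminal WD-repeat domain that takes up many partners. Tle5 is short and lacks the WD-repeat domain. In developing T cells the long members act with TCF1, LEF1 and RUNX proteins, which set the choice between the CD4 and CD8 lineages. Tle6 is a divergent member, known in mouse cortical progenitors for opposing repression by the long members and in the oocyte as part of the subcortical maternal complex.

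The microRNA for which both alleles are named belongs to a family of closely related sequences, shown here because they share what guides target choice. The mature 5p forms from RefSeq (GRCm38.p6) read as follows, with the seed, bases 2 to 8, in capitals.
miR-181d-5p (chr8:84178759-84178781, minus strand): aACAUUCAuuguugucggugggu
miR-181a-5p (chr1:137966468-137966490, plus strand): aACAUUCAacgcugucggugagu
miR-181b-5p (chr1:137966650-137966673, plus strand): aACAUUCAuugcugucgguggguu
miR-181c-5p (chr8:84178924-84178945, minus strand): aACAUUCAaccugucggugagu
All 4 share the seed ACAUUCA. The same miR-181a-5p and miR-181b-5p sequences also lie on chromosome 2, starting at 38852741 and 38853845 on the plus strand. Whether a Groucho transcript carries a match to it was not examined.

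Tle6 was higher in transgenic thymus than in knockin thymus. Its only probe (780445) gave an unnormalised bead signal of 680.8 and 599.4 on the transgenic arrays, against 382.7 and 418.4 on the knockin arrays. Both transgenic values lay above both knockin values, and all 4 lay well above the background limit of their array, which ranged from 146.2 to 150.6. After background correction and quantile normalisation the probe averaged log2 9.21 ± 0.037 in transgenic and 8.35 ± 0.059 in knockin thymus (SD, n = 2 each). The difference was 0.86 on the log2 scale (limma SE 0.10), or 1.81-fold. The 2 arrays of a genotype differed by 0.05 (transgenic) and 0.08 (knockin) on that scale. In the plot of signals by array, Tle6 is the one family gene whose brightest probe separates the genotypes before normalisation. Of the 18 family probes 1 passed the threshold of the fit over all probes, a Benjamini-Hochberg adjusted p under 0.05, where 0.0795% of all probes passed, and since Tle6 brought the family in, nothing is read from that count.

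**Figure D1:**
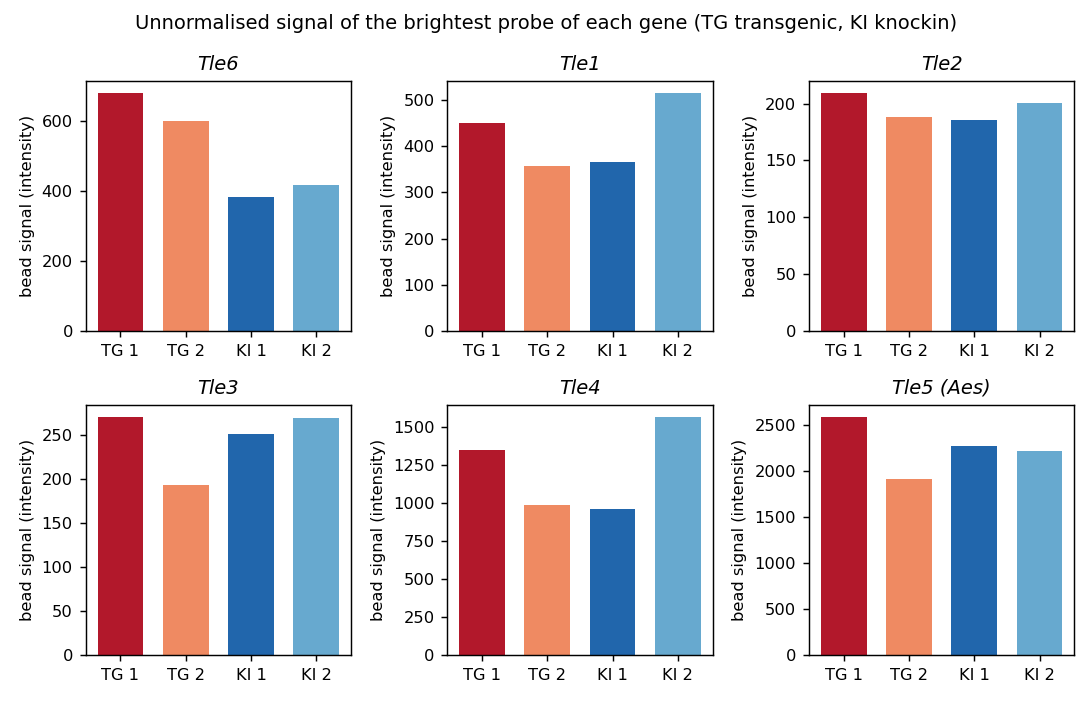
Unnormalised bead signal (intensity, axis from 0) of the brightest probe of each Groucho gene on transgenic arrays 1 and 2 (TG) and knockin arrays 1 and 2 (KI), 1 bar per array. Tle6 reads 680.8 and 599.4 on the transgenic arrays against 382.7 and 418.4 on the knockin arrays, while the arrays of both genotypes overlap for the other 5 genes.

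Promoter windows from RefSeq (GRCm38.p6, 250 bases before to 50 after an annotated start) were found for 5 of the 6 genes, 7 windows in all, and Tle5 had none in that table. They were searched on both strands for CTTTGA, the core bound by TCF and LEF, TGTGGT, bound by RUNX, CACGTG, the E-box to which HES and other helix-loop-helix factors bind, and CACGCG, a further HES site. Neither CTTTGA nor TGTGGT occurred in any of the 7 windows, while 5257 and 5506 of all 32851 windows hold them. CACGTG occurred in windows of Tle6, Tle3 and Tle4 and in 7.15% of all windows. In these 3 genes the E-box lies inside the same 10-letter palindrome, CCCACGTGGG, which 0.119% of all windows hold. The longer run was picked out after these windows had been read, so the shares are a description. Those windows are shown because of that shared run, with CCCACGTGGG, and any other CACGTG, in capitals.
Tle6, upstream start (chr10:81600851-81601150, minus strand): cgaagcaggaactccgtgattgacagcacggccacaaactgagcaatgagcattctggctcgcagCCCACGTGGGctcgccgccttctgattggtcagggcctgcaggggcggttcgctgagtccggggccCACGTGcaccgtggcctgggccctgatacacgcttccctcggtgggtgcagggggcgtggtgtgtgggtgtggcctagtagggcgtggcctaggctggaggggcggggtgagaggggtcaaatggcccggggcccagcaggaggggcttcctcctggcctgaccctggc
Tle3 (chr9:61372116-61372415, plus strand): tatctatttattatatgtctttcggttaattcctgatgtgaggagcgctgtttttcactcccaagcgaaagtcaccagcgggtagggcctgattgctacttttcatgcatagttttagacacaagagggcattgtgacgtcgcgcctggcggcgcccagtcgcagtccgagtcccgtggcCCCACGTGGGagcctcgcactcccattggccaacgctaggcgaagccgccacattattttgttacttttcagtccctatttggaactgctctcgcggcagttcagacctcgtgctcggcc
Tle4, upstream start (chr19:14598134-14598433, minus strand): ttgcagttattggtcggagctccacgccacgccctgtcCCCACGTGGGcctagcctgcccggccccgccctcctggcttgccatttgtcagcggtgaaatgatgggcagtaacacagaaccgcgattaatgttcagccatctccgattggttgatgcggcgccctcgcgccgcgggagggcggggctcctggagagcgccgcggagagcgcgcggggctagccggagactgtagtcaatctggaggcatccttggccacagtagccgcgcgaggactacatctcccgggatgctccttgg
The run begins 185 bases before the start in Tle6, 70 before it in Tle3 and 212 before it in Tle4, and Tle6 has a further CACGTG at 119 bases before the start. CACGCG was found in the window of Tle1 alone among the family, and in 9.27% of all windows. The values of Tle3 and Tle4, which carry the same run, are given below. Whether the run has any part in the Tle6 difference was not tested.

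None of the other 17 probes passed the threshold, and the lowest adjusted p among them was 0.9996 (limma). Their log2 differences ran from -0.21 to 0.23, with 9 above and 8 below 0 and a median of 0.0082, against a median of 0.00079 over all probes. Their limma SEs, which eBayes draws towards a spread common to all probes, lay between 0.10 and 0.16. Small differences could therefore not be resolved with 2 arrays per genotype. Of the 17, 13 were above background on all 4 arrays. The genotypes did not overlap in 7 of the 17, and 32.7% of all probes show such a separation in one direction or the other.

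Tle1, a long corepressor, was read by 6 probes, of which 3 were above background on all arrays. The brightest (610341) gave 450.5 and 357.2 in transgenic thymus, against 366.4 and 514.5 in knockin thymus. The genotypes overlapped there, with knockin array 2 the highest, and the log2 difference was -0.06 (SE 0.13). Probe 7040204 showed the same order of arrays within the knockin pair, at 239.1 and 225.1 in transgenic and 216.4 and 283.8 in knockin thymus (log2 difference -0.06, and 0.096 without knockin array 2). Probe 2490327 read 244.2 and 226.8 in transgenic thymus, below both knockin values of 251.5 and 290.2, with a log2 difference of -0.21 (SE 0.10, limma adjusted p = 0.9996). Probe 4880243 rose above background on transgenic array 1 alone, and 6650746 and 3140138 did so on none, so these 3 give no level for Tle1.

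Tle2, another long member, was dim. Its brighter probe (6580653) read 209.3 and 188.1 in transgenic thymus and 185.5 and 200.1 in knockin thymus, with a log2 difference of 0.11 (SE 0.10). The second probe (1510025) read 202.8 and 181.1 in transgenic thymus and 162.7 and 193.1 in knockin thymus, with a log2 difference of 0.23 (SE 0.11, limma adjusted p = 0.9996), the largest among the 17 probes. It ranged from 0.12 without knockin array 1 to 0.33 without knockin array 2. Unnormalised signals of the genotypes overlapped on both probes, and the normalised ones lay just apart, higher in transgenic thymus.

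Tle3, which works with TCF1 and RUNX factors in T cells, had 4 probes, and 3 were above background on every array. Its brightest probe (6250300) read 271.0 and 193.5 on the transgenic arrays against 251.4 and 269.1 on the knockin arrays. Transgenic array 2 stood below the other 3, and the log2 difference of -0.21 (SE 0.15) rested on it, since it was 0.027 without that array. Only 3.65% of the 4690 probes of like brightness, within 0.5 on the log2 scale, had so wide a gap between the transgenic arrays. Probe 7210647 showed the same low array, at 171.7 and 140.9 in transgenic and 160.7 and 181.7 in knockin thymus. Its log2 difference of -0.21 (SE 0.14) was -0.021 without transgenic array 2. Probe 2710338 had a log2 difference of 0.04, and probe 430577 one of -0.13, so that 3 of the 4 Tle3 probes lay below 0 and 1 above it, and none passed the threshold.

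Tle4, a long member like Tle1 and Tle3, varied more between the knockin arrays than between the genotypes. Its brightest probe (3800168) read 1350.1 and 988.7 in transgenic thymus and 962.8 and 1567.2 in knockin thymus. Knockin array 2 was the highest and knockin array 1 the lowest, 0.50 apart on the normalised log2 scale. The genotype difference was -0.0082 (SE 0.16). Of the 2061 probes of like brightness 4.46% had a knockin gap of that size or more. The dimmer Tle4 probes behaved otherwise. Probe 2510504 read 219.7 and 201.1 in transgenic thymus against 194.7 and 209.8 in knockin thymus (log2 difference 0.14, SE 0.10), and probe 5490161 had a log2 difference of 0.11 (SE 0.10). On these the knockin arrays were 0.03 and 0.01 apart on the log2 scale, so the wide gap was seen by 1 of 3 probes.

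Tle5, the short member, had the same profile on both of its probes. The brighter (5570497) read 2595.3 and 1913.7 on the transgenic arrays against 2276.7 and 2225.2 on the knockin arrays, and the other (4200193) read 1230.9 and 817.2 in transgenic against 962.1 and 980.7 in knockin thymus. Before normalisation transgenic array 1 was highest and transgenic array 2 lowest on both, so that the knockin arrays lay inside the transgenic range. The log2 differences were 0.10 (SE 0.13) and 0.14 (SE 0.14), and each changed sign when transgenic array 1 was left out, to -0.021 and -0.044, while that of the brighter probe was -0.021 without knockin array 2 as well.

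**Figure D2:**
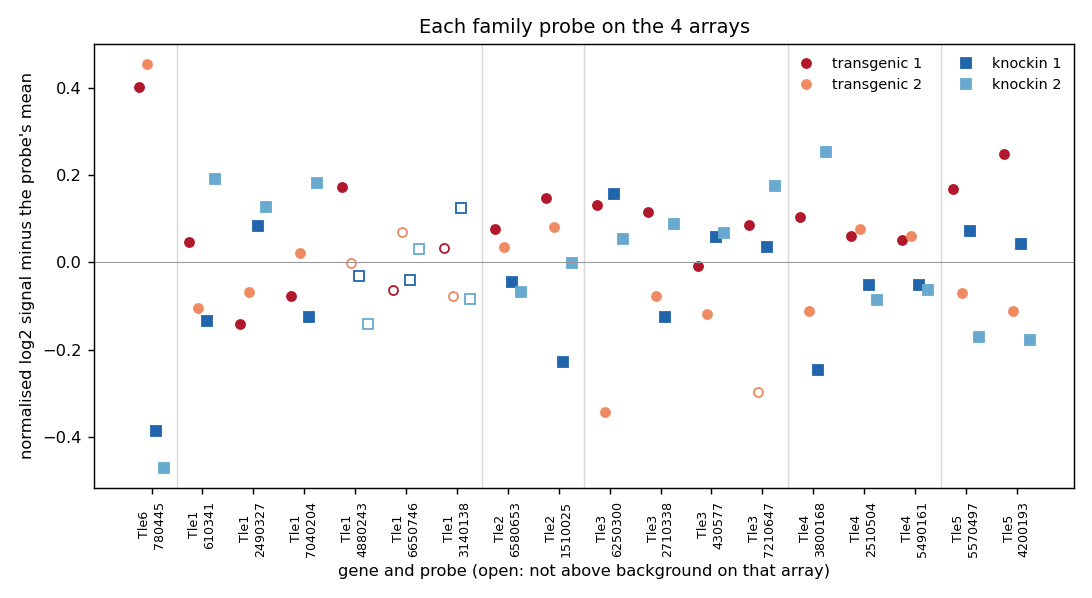
Normalised log2 signal of each of the 18 family probes on the 4 arrays, as the distance from the probe's own mean, with circles for transgenic and squares for knockin arrays and open symbols where the array did not exceed its background limit. The 2 genotypes lie 0.86 apart for Tle6, whereas no other probe has a difference beyond 0.23 in size.

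Tle5, Tle2 and Tle6 stand together on mouse chromosome 10 in the RefSeq gene order, with 2 genes, one of them Tle2, between Tle5 and Tle6. Tle2 and Tle6 run towards each other and their annotated spans overlap at the ends, and where the probes lie within them is not given in the table. The difference of Tle6 was not shared by the genes around it. Of the measured genes up to 10 places outside this group, 11 in number and 7 above background on all arrays, 0 passed the threshold and 0 had an unadjusted p under 0.05 (limma). Their differences ran from -0.22 to 0.16 with a median of -0.036. Next to Tle6, the transcribed pseudogene BC025920 had a log2 difference of 0.07 and Sirt6, a chromatin deacylase, one of -0.18. Ankrd24, an ankyrin-repeat gene, was above background on the transgenic arrays only, at 151.9 and 146.8 against 140.1 and 144.4 in knockin thymus. On the far side of Tle5, the G protein alpha subunits Gna11 and Gna15 had values of -0.22 and -0.04.

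**Figure D3:**
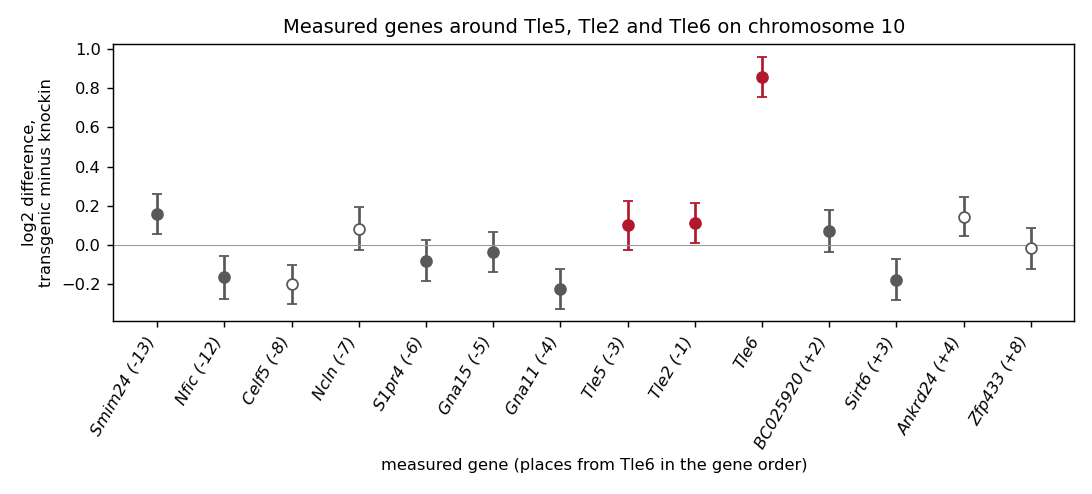
Log2 difference (transgenic minus knockin, bar for the limma SE) of the brightest probe of each measured gene around Tle5, Tle2 and Tle6, in the gene order of chromosome 10, with the places from Tle6 in brackets. Family genes are red and open symbols mark genes not above background on all 4 arrays; Tle6 stands at 0.86 and the 11 neighbours between -0.22 and 0.16.

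Factors that recruit Groucho proteins, their targets and the silencing machinery were followed in 8 lists of 91 genes, of which 87 were matched to a probe by name and 46 were above background on all arrays. None of the 87 passed the threshold (limma, lowest adjusted p = 0.805), where 0.117% of all genes did, and 4 had an unadjusted p under 0.05, where 5.33% of all genes had one. Among 10 genes of the TCF, LEF and beta-catenin group, with a median difference of -0.082, the smallest p belonged to Lef1, the HMG-box factor that binds Tle proteins. Lef1 read 536.9 and 351.0 in transgenic thymus against 538.5 and 662.2 in knockin thymus (log2 difference -0.46, SE 0.15, limma adjusted p = 0.885). Lef1 was 0.49 lower on transgenic array 2 than on transgenic array 1 on the normalised log2 scale. Its relative Tcf7, which encodes TCF1, had a value of -0.27, Tcf7l2 one of 0.20 and Ctnnb1, encoding beta-catenin, one of -0.20. The RUNX group of 7 had a median of -0.045, with Runx1 at -0.05. Cbfa2t3, a corepressor of the ETO family, read 877.2 and 620.9 in transgenic and 1021.9 and 1028.0 in knockin thymus (log2 difference -0.43, SE 0.13, limma adjusted p = 0.805), while Runx2 was not above background on any array.

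Wnt feedback targets had a median of -0.034 over 10 genes, 5 of them not above background on any array. Myc, a growth regulator, stood at -0.27 and Axin2, a feedback inhibitor of the Wnt pathway, at -0.10. Myc was dim, at 167.5 and 147.2 in transgenic against 163.1 and 196.6 in knockin thymus, so the unnormalised signals overlapped. On transgenic array 2 it lay close to the background limit of 146.2. Dkk1, a secreted Wnt inhibitor with an unadjusted p under 0.05, exceeded background on transgenic array 1 alone. The 12 thymocyte differentiation genes, all above background on every array, had a median of -0.054. The nuclear factors Tox and Gata3 stood at -0.28 and -0.23, and the cytokine receptor chain Il7r at 0.26. Il7r was low on knockin array 1 alone, at log2 9.72 against 10.24 on knockin array 2 and 10.23 and 10.24 on the transgenic arrays. Genes of the HES and HEY group, of which HES proteins repress through Groucho, had a median of -0.015 over 12, with Hes1 at -0.27 and Bhlhe40 at -0.20. Of 14 other factors that bind Groucho proteins 1 was above background on all arrays, and Foxd3, the fourth gene with an unadjusted p under 0.05, exceeded it on transgenic array 1 alone. The corepressor machinery had a median of -0.027 over 15 genes. The kinase Hipk2 stood at -0.19, the histone chaperone Rbbp7 at -0.23 and the deacetylase Hdac1 at 0.15. Rbbp7 was high on knockin array 2 alone, at log2 11.18 against 10.74 on knockin array 1 and 10.76 and 10.70 on the transgenic arrays. Partners of Tle6 in the oocyte complex had a median of 0.020 over 7 genes. Of these 4 were not above background on any array, Nlrp5 and Zbed3 among them, and 2 were above it on all arrays. Of those 2, Khdc3 read 179.0 and 179.4 in transgenic against 164.3 and 193.1 in knockin thymus. The other, Ooep, read 367.2 and 342.9 in transgenic against 330.4 and 421.3 in knockin thymus. Of 6 oocyte markers 4 were likewise not above background on any array, Zp2 and Zp3 among them, while 1 was above it on all arrays.

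**Figure D4:**
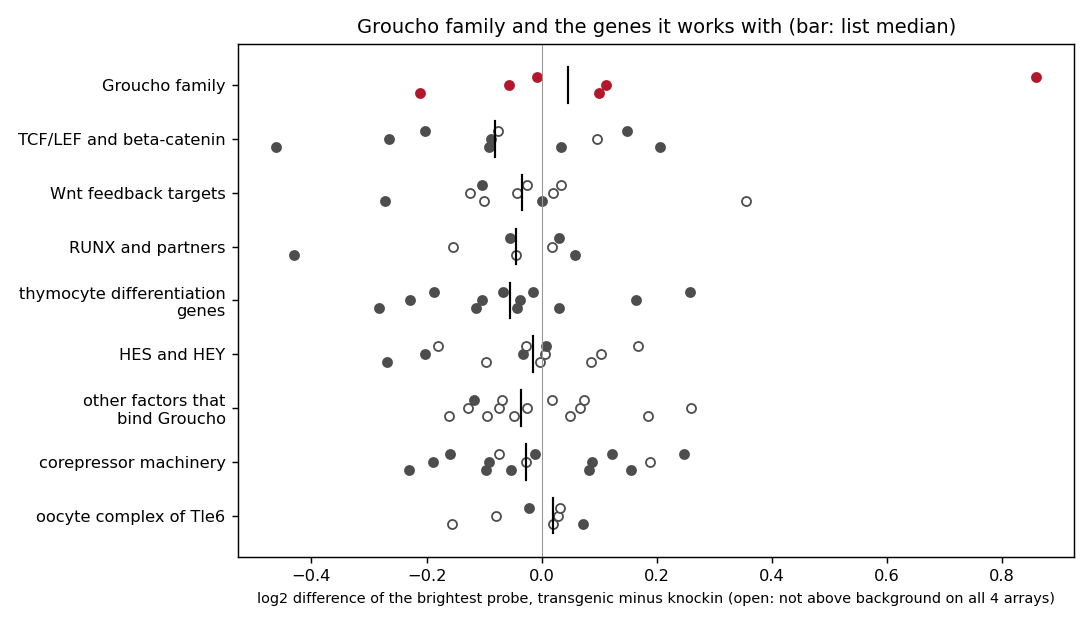
Log2 difference (transgenic minus knockin) of the brightest probe of each gene, for the 6 Groucho genes in red and for 8 lists of genes they work with, with a bar at each list's median and open symbols for genes not above background on all 4 arrays. Tle6 lies at 0.86, and all 87 list genes lie between -0.46 and 0.36.

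The probes whose 4 values, each centred on its own mean, lay nearest to those of Tle6 were sought among 19641 probes above background on both arrays of a genotype. Nearest was a probe of Trub1, a pseudouridine synthase, at a Euclidean distance of 0.070 on the log2 scale over 4 arrays. Another Trub1 probe (0.120), one of the histone gene H2bc11 (0.113), LOC626578 (0.139) and Sytl3 (0.179), of the synaptotagmin-like family, followed. All 5 were higher on both transgenic arrays, by 0.81 to 0.88 on the log2 scale, so likeness here says mainly that the genotype difference is of the same size.

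Across the arrays, all 10 markers of double-positive thymocytes, the major cell of the thymus, were above background everywhere, with a median difference of -0.052. In whole tissue, fewer cells of a type and less RNA per cell cannot be told apart. Granulocyte genes differed between the genotypes together with Tle6, in the opposite direction. Of 9 measured, 8 had values below 0 and 3 were lower by the threshold, where 0.117% of all genes passed in either direction. The summed signal of the 9 was 5150 and 3844 on the transgenic arrays against 9178 and 12034 on the knockin arrays. B cell markers summed to 2051 and 1924 in transgenic and 2100 and 2176 in knockin thymus, with 0 of 8 past the threshold. Only 4 of the 8 were above background on all arrays, so these sums include signal at background level. Of the 8, 6 had values below 0, down to -0.49, and 2 above it, with a median of -0.13. An unadjusted limma p under 0.05 was found for 2 of them, where 5.33% of all genes had one. No marker of macrophages, thymic epithelium, erythroid cells, fibroblasts or oocytes passed it, and the medians of these lists ran from -0.14 to 0.060. Among 7 erythroid markers, with a median of 0.0025, 3 had an unadjusted limma p under 0.05, where 5.33% of all genes had one. The summed signal of the 7 was 5521 and 5303 on the transgenic arrays against 6609 and 9280 on the knockin arrays. Of these 7 markers, 4 had log2 differences above 0, up to 0.25, and 3 below it. The haemoglobin gene Hba-a1 was at -0.75 (SE 0.22, limma adjusted p = 0.726). Hbb-b1, also a haemoglobin gene, was at -0.44 (SE 0.14, limma adjusted p = 0.858). Macrophage markers summed to 10727 and 10693 in transgenic and 12488 and 12559 in knockin thymus. The part of these cells in the Tle6 difference was not tested. Xist, expressed from the inactive X chromosome of females, read 4366 and 4392 on the transgenic arrays against 4570 and 129.5 on the knockin arrays, and the Y-linked Eif2s3y read 130.3 and 133.4 on the transgenic arrays against 125.0 and 909.8 on the knockin arrays. Knockin array 2 thus had the profile of a male, and it was the array on which the brightest Tle1 and Tle4 probes were highest. Without it the Tle6 difference was 0.81, and those of the Tle1 and Tle4 probes were 0.11 and 0.24. The labels put the 4 arrays on the same slide, with the genotypes at different places, so place and genotype cannot be told apart. Whether the 2 transgenic samples came from separate mice is not stated. The p-values rest only on the spread between these samples, which eBayes draws towards a spread common to all probes.

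The Tle6 difference, a description with no test, ran from 0.75 without background correction to 0.93 with a smaller offset over 13 alternative settings. Of these, the crossed replicate block was chosen after seeing the data. Both block settings, the robust priors, the background filter and the mean of a gene's probes cannot move this difference. They returned the same 0.86. Both transgenic values lay above both knockin values before any of this processing.

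**Figure D5:**
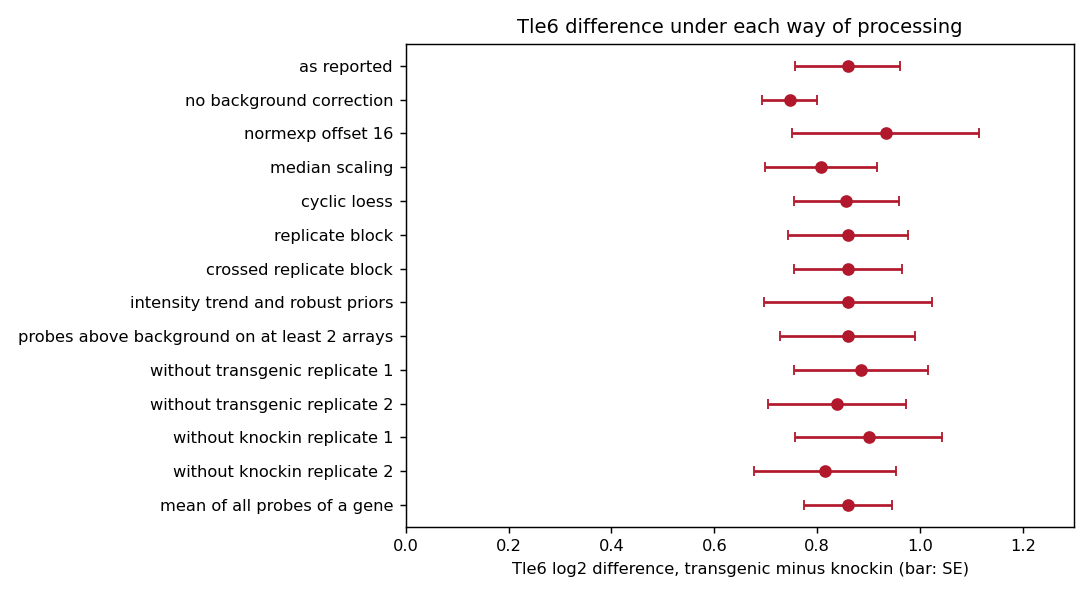
Log2 difference of Tle6 (transgenic minus knockin, bar for the limma SE) as reported and under 13 other ways of processing. All 14 values lie between 0.75 and 0.93. Both block settings, the robust priors, the background filter and the mean of a gene's probes return 0.86 by construction.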

How the data were processed

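Whole thymus RNA was read on Illumina MouseWG-6 v2.0 bead arrays. Per the file headers, the deposited table was written by GenomeStudio 1.9.0 and gives the average bead signal intensity per probe not normalised and without an error model. Detection p-values and control probes are not in it, so neqc was replaced by normexp. The authors' value table, a processed intensity, shares no probe identifier with it and gave only a count of calls.

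Signals were corrected with normexp (offset 50), put on the log2 scale and quantile normalised. The offset compresses differences of dim probes. All 45281 probes were fitted with limma 3.58.1 in R 4.3.3 (lmFit, eBayes, two-sided). Adjusted p followed Benjamini and Hochberg over the whole table, with 0.05 as the threshold. Differences are transgenic minus knockin. The same code was tested on simulated data. A probe counted as above background when it lay more than 3 SDs, taken from the values under the array's commonest signal, above that signal (146.2 to 150.6); 43.1% to 45.6% of probes did. Array totals carry no depth, and the number of arrays limits the precision.

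Array names were matched to symbols in a RefSeq table (GRCm38.p6), 34781 probes to 1 gene. The brightest probe, by its mean over all arrays, stood for a gene in lists and gene order. Named were all family probes, the smallest p per list (up to 3, or 2 for markers), neighbours of Tle6 and the 5 nearest profiles. The text prints examples of these. Hdac1, Axin2, Ctnnb1, Ooep, Zp2 and Xist were added after their values were seen. Members, lists and tests were chosen with earlier results of these data known.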

Additional observations from a re-analysis of the deposited data

How the results depend on the processing

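Tle6, described without a test, stood at 0.75 without background correction, 0.81 with median scaling, 0.86 with the replicate number as a block and 0.84 without transgenic array 2, and ran from 0.81 to 0.90 over the fits that leave out 1 array. The count of family probes called, 1 as reported and from which nothing is read, was 0 in each of these 4 settings and ran from 0 to 1 without single arrays. Same-numbered arrays deviated in opposite ways from their genotype means (r = -0.36 across 17837 probes, which are not independent), so the replicate numbers were not taken as pairs. Pairing them crosswise, which was chosen after seeing the data, called 1 family probe, 1 list gene and 364 probes in all. All probes called, 36 as reported, were 3 without background correction, 70 with an offset of 16, 2 with median scaling, 112 with an intensity trend and robust priors, 24 to 88 without single arrays and 12 genes when the probes of each gene were averaged. The authors' value table, on log2(value + 8), called 0 with limma, with 3299 at an unadjusted p under 0.05. Probes of the other genes never passed, and their sign changed in 16 of 206 fits. The 206 include the block, prior and filter fits, which cannot change a sign. With the mean of its probes Tle4 changed sign, to 0.081, and all the other changes came with a single array left out. Without single arrays the sign-changing probes ranged from -0.021 to 0.22 for Tle5 (5570497), -0.044 to 0.31 for Tle5 (4200193), -0.068 to 0.14 for Tle3 (2710338), -0.22 to 0.11 for Tle1 (610341), -0.059 to 0.074 for Tle1 (6650746), -0.14 to 0.062 for Tle1 (3140138), -0.44 to 0.027 for Tle3 (6250300), -0.25 to 0.24 for Tle4 (3800168) and -0.21 to 0.096 for Tle1 (7040204). No neighbour of Tle6 was called in any setting. Tle2 (1510025) ran from 0.12 to 0.33 and Tle3 (7210647) from -0.39 to -0.021, both keeping their sign. The causes of these changes were not tested.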
